A study of Homo sapiens with 6 samples.

Results

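The set described here is 10 small structural RNAs that form the core of ribonucleoprotein particles (RNPs) measured in HEK293T cells without and with queuine: RN7SK, RN7SL1, RN7SL2, RPPH1, RMRP, TERC, VTRNA1-1, RNY1, RNY3 and SCARNA2. They were found by Ensembl identifier, and each of the 10 matched 1 row of the 63086 gene rows in the deposited count table. HEK293T is an established human embryonic kidney line that carries the SV40 large T antigen. All 6 libraries came from this line grown in DMEM with dialyzed fetal bovine serum, which is depleted of small molecules such as queuine. The 3 libraries of 0Q came from cells kept in that medium, and the 3 of 100Q from 0Q cells given queuine for 24 hours. The labels give the dose as 100 nM in the sample characteristics and as 1 µM in the protocol for the treatment, and which holds is not settled here. Total RNA was extracted with TRIzol. The labels name MSR-seq as the library method and mRNA-seq as the assay, and whether polyadenylated RNA was selected is not given in the sources used here.

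As background, these RNAs act as scaffolds, guides, templates or catalysts rather than as messengers, and most are made by RNA polymerase III and carry no poly(A) tail. The 7SK RNA holds the elongation kinase P-TEFb inactive together with LARP7, MEPCE and HEXIM proteins. The 7SL RNA is the backbone of the signal recognition particle, which brings ribosomes making secreted proteins to the endoplasmic reticulum. RPPH1 is the catalytic RNA of RNase P, which trims the 5′ ends of tRNA precursors, including the precursors of the tRNAs that receive queuosine. RMRP is its relative in RNase MRP, which acts on ribosomal RNA precursors, and TERC is the template of telomerase. Vault RNAs and Y RNAs bind the vault particle and the RO60 protein, and SCARNA2 guides methylation of the U2 spliceosomal RNA in Cajal bodies.

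The libraries held 4023956 to 11398835 estimated counts, the shallowest being 100Q replicate 2 and the deepest 100Q replicate 3. The 10 RNAs made up 0.0935% to 0.145% of each total. Neuronal genes typical of HEK293T were present, with NEFM at 146 to 196 and NEFL at 88.7 to 114 CPM. CPM here means counts scaled to a common library total. Values below also used the TMM factor of each library, apart from the upper limits given for VTRNA1-1. The leukocyte genes PTPRC and CD3E had 0 counts in all 6 libraries. The labels say that the cells were grown in triplicate and not whether these were separate cultures. The p-values therefore reflect only how far these libraries differ, and that spread may be technical.

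The shortest of the RNAs were at or near 0, and the sequences of VTRNA1-1 and RNY1 are shown because their length sets them apart from the longer RNAs. VTRNA1-1 (chr5:140711275-140711373, plus strand, 99 nt), RNY1 (chr7:148987136-148987248, minus strand, 113 nt) and RNY3 (chr7:148983755-148983856, plus strand, 102 nt) are single-exon genes. Both sequences are written 5′ to 3′ from the GENCODE 44 transcripts (hg38), with the closing run of T in capitals. Such a run is where RNA polymerase III stops.
VTRNA1-1: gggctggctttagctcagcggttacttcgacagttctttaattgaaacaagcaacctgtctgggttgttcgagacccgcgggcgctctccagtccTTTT
RNY1: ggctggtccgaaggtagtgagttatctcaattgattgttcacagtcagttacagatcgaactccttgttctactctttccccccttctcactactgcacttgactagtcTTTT

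VTRNA1-1 had 0 estimated counts in every library, which allows up to 3 counts, or 0.263 CPM in the deepest library and 0.746 CPM in the shallowest. RNY1 had 2 counts in 0Q replicate 3 and 0 in the other libraries. RNY3 had 3 counts in 100Q replicate 3 and 0 in the other libraries. None of the 3 reached the minimum for a test, and at this depth a difference between 0Q and 100Q was not detectable. Their relatives gave the same picture: VTRNA1-2, VTRNA1-3 and VTRNA2-1 had 0 counts in all 6 libraries, and RNY4 had 2 counts in 0Q replicate 3 and 0 elsewhere. A longer noncoding gene, ENSG00000292256, covers VTRNA1-1 on the same strand, and its row held 1 count, in 100Q replicate 2. The 810 other rows of Y RNAs and their copies held 0 to 6 counts per library. Proteins that bind these RNAs were well covered, apart from MVP, the major vault protein, which was at 1.86 ± 0.498 CPM without queuine and 1.70 ± 1.10 CPM with it (SD, n = 3 each).

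Low counts were usual in short rows, and in the small RNA classes they were usual at every length. Among rows of the small RNA classes (misc_RNA, snRNA, snoRNA, scaRNA, ribozyme and vault_RNA), 3 of 3528 shorter than 150 nt reached 10 counts over the 6 libraries (0.085%). The figure was 9 of 457 (1.97%) from 150 nt to under 250 nt and 32 of 1127 (2.84%) from 250 nt. Rows of all other classes except microRNAs and mitochondrial tRNAs showed the same order, with 3 of 1243 (0.241%) below 150 nt, 35 of 1671 (2.09%) from 150 nt to under 250 nt and 37.4% from 250 nt. All 7 of the RNAs that are 264 nt or longer had at least 14 counts in sum. Whether the short RNAs were scarce in these cells or were lost in library making or counting was not tested.

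**Figure D1:**
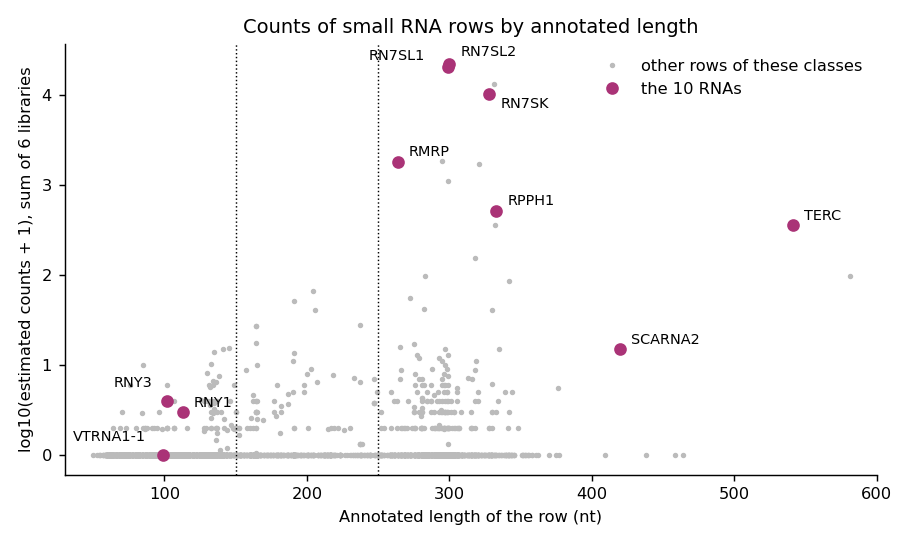
Annotated length of each row (x axis, nt) against log10 of its estimated counts plus 1, summed over the 6 libraries (y axis), for rows of the small RNA classes (grey) and the 10 RNAs (purple), with dotted lines at 150 and 250 nt. The 3 RNAs below 150 nt, VTRNA1-1, RNY1 and RNY3, sit at the bottom with 0 to 3 counts, and 4 grey rows longer than 600 nt are not shown.

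As single rows, the 7SL RNAs had the highest mean levels of the 10, and their difference between the groups was within the spread of the libraries. RN7SL1 (ENSG00000276168, chr14:49586580-49586878, plus strand) and RN7SL2 (ENSG00000274012, chr14:49862550-49862849, minus strand) are near copies, 98.3% identical over 300 aligned positions. RN7SL1 lies within the span of RPS29, on the opposite strand and outside its exons.
Of the 269 windows of 31 bases in RN7SL1, 267 occur in transcripts of other genes, on either strand. For RN7SL2 it was 270 of 270, all of them in the noncoding gene ENSG00000282885, whose exons cover it on the same strand. A read within such a window cannot be assigned to 1 row by sequence, so the estimated counts of these rows are uncertain.

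RN7SL1 was at 518, 489 and 399 CPM in 0Q replicates 1 to 3 and at 533, 425 and 434 CPM in 100Q replicates 1 to 3. RN7SL2 was at 510, 549 and 481 CPM in 0Q and at 524, 398 and 541 CPM in 100Q. The groups overlapped for both, and 100Q replicate 2 was the lowest library of its group for both. The log2 fold change (100Q minus 0Q) was -0.02 (95% interval -0.24 to 0.21) for RN7SL1 and -0.07 (-0.29 to 0.14) for RN7SL2. These intervals exclude a change of 1.5-fold in either direction for these 2 rows (edgeR, Benjamini-Hochberg adjusted p = 0.996 and 0.991).

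The row of ENSG00000282885 held more counts than RN7SL2 itself, at 927 to 1271 CPM in the 0Q libraries and 828 to 1286 CPM in those of 100Q. Its exons total 2241 nt against 300 nt for RN7SL2, so its counts may include reads from outside RN7SL2. RN7SL2 had 29.6% to 34.2% of the counts of both rows together. With both rows added, a step chosen after the data were seen here and for the other loci below, the locus averaged 1600 ± 208 CPM without queuine and 1550 ± 304 CPM with it (SD, n = 3 each), and the log2 fold change was -0.04 (-0.30 to 0.22). The other 678 rows of 7SL copies were RN7SL3 and pseudogenes, with 114 of them above 0. They held 7.83% to 12.3% of the counts of RN7SL1, RN7SL2 and these copies, a total that leaves out ENSG00000282885. Adding the copies to RN7SL1 and RN7SL2, again without that row, gave a log2 fold change of -0.09 (-0.29 to 0.10). The protein genes of the particle and its receptor were tested in full. None of 8 passed, and 6 had a negative log2 fold change. SRP9 and SRP14, which form the domain that slows translation, had -0.15 ± 0.07 and -0.12 ± 0.11 (SE), SRP54, the subunit that binds signal peptides, had 0.04 ± 0.10, and SRP72, the smallest p of the list, had -0.20 ± 0.09 (edgeR, Benjamini-Hochberg adjusted p from 0.987 to 0.995).

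RN7SK (ENSG00000283293, chr6:52995621-52995948, plus strand) varied more between libraries of a group than any other gene of its abundance. It was at 376, 167 and 226 CPM in 0Q replicates 1 to 3 and at 208, 72.9 and 278 CPM in 100Q, a ratio of 5.15 between the highest and the lowest library. The groups overlapped, with 0Q replicate 1 highest and 100Q replicate 2 lowest. Its SD of log2 CPM within groups was 0.830, above all the other 1993 of 1994 tested genes that averaged 100 CPM or more, whose median was 0.0984. The log2 fold change was -0.43 (-1.12 to 0.27). Leaving out 0Q replicate 1 made it -0.04, leaving out 100Q replicate 2 made it -0.07, and with 100Q replicate 3 left out it was -0.85.

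A second row of the table, named 7SK (ENSG00000202198, chr6:52995620-52995950), holds the same RNA with 1 more base at the 5′ end and 2 more at the 3′ end. Its first and last 60 bases (chr6:52995620-52995679 and chr6:52995891-52995950) are printed because these ends are all that separates the rows. Capitals mark the bases that lie outside RN7SK.
7SK, 5′ end: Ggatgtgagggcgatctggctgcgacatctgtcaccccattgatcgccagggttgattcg
7SK, 3′ end: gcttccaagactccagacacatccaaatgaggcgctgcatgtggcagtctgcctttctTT

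All 298 windows of 31 bases in RN7SK occur in that row too. The 7SK row was at 244, 458 and 280 CPM in 0Q and at 261, 336 and 261 CPM in 100Q. In the libraries where 7SK was highest, 0Q replicate 2 and 100Q replicate 2, the RN7SK row was lowest of its group. RN7SK held 60.6%, 26.7% and 44.6% of the counts of both rows in the 0Q libraries, in replicate order, and 44.3%, 17.8% and 51.6% in those of 100Q. With the rows added, the locus was at 620, 625 and 506 CPM in 0Q and at 469, 409 and 538 CPM in 100Q. The ratio of the highest to the lowest library then was 1.53, and the SD of log2 CPM within groups was 0.186. That was still above 94.0% of the 1994 genes. For RN7SL2, adding its covering row raised this SD from 0.184 to 0.246.

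The summed 7SK locus had 584 ± 67.1 CPM without queuine and 472 ± 64.8 CPM with it (SD, n = 3 each). The groups overlapped, since 100Q replicate 3 lay above 0Q replicate 3. The log2 fold change was -0.30 (95% interval -0.52 to -0.08), and it did not pass over all genes (edgeR, Benjamini-Hochberg adjusted p = 0.986). It was -0.21 to -0.41 with each library left out in turn, against -0.04 to -0.85 for the single row. Without a filter on low counts, the single row RN7SK was called lower at the same fold change, -0.43 (edgeR, Benjamini-Hochberg adjusted p = 0.000899), in a fit that called 0.245% of 28995 genes, and 0.121% with 100Q lower. The other 293 rows of 7SK copies, 38 of them above 0, held 2.70% to 20.7% of the counts of RN7SK and these copies. That total leaves out all rows named 7SK, ENSG00000202198 among them. Adding the copies to RN7SK, again without those rows, gave -0.37 (-0.99 to 0.26). The proteins of the particle did not pass: LARP7, which protects the 3′ end of 7SK, had -0.12 ± 0.12, MEPCE, which caps its 5′ end, -0.06 ± 0.10, and HEXIM1, the kinase inhibitor, -0.01 ± 0.12 (SE). Of 7 genes in the list, including CDK9 and the cyclins CCNT1 and CCNT2, 4 had a positive log2 fold change, and the median was 0.03.

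**Figure D2:**
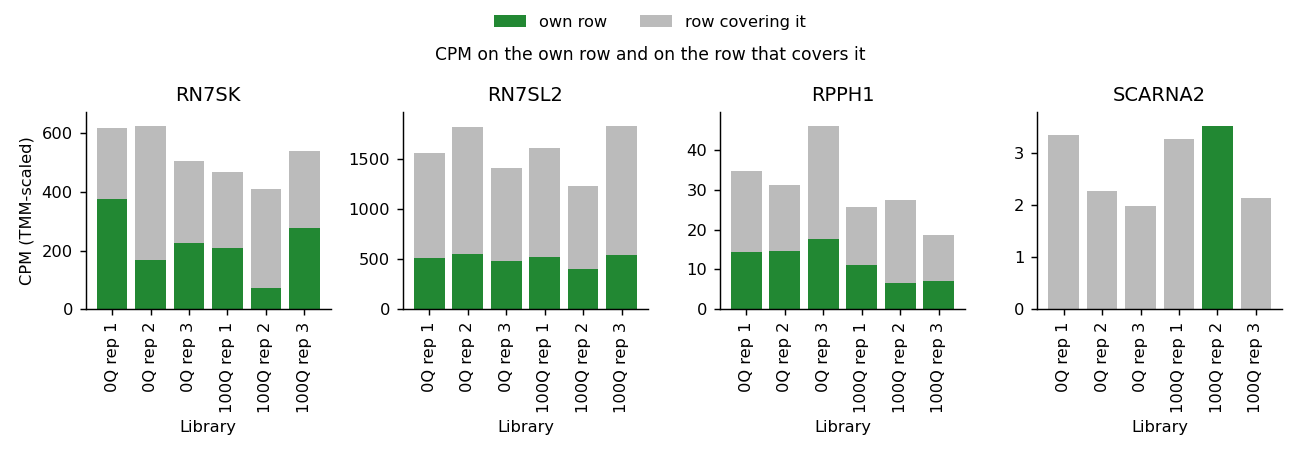
CPM (y axis, TMM-scaled, each panel with its own scale from 0) in each of the 6 libraries (x axis) for the row of the RNA (green) and for the row of another gene that covers it on the same strand (grey), stacked to the locus sum. For RN7SK the green part ranges from 72.9 to 376 CPM while the full bar ranges from 409 to 625 CPM, and for SCARNA2 the only green bar is 100Q replicate 2.

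**Figure D3:**
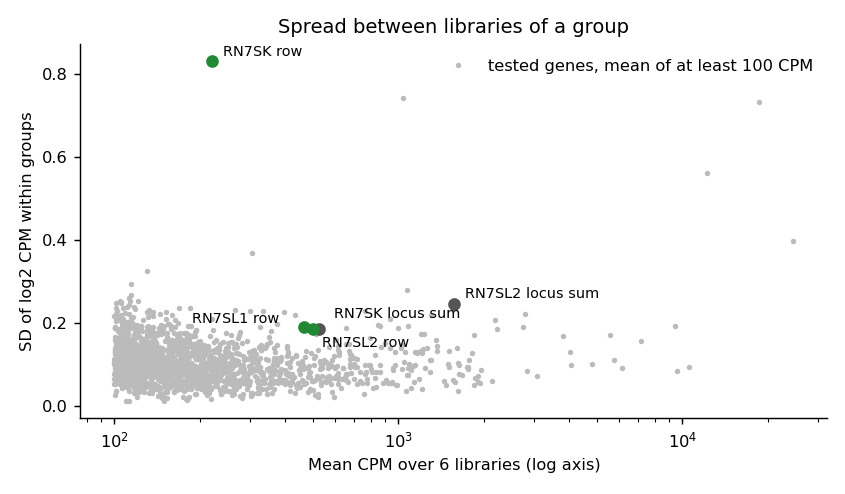
SD of log2 CPM between libraries within groups (y axis) against mean CPM over the 6 libraries (x axis, log scale) for 1994 tested genes of at least 100 CPM (grey), with RNA rows in green and locus sums in dark grey. The RN7SK row is the highest point at 0.830, and the sum of both rows of that locus lies at 0.186.

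Of the 6 RNAs tested, RPPH1 was the 1 whose groups did not overlap, with all 3 libraries of 100Q below those of 0Q. RPPH1 (ENSG00000277209) lies at chr14:20343075-20343407 on the minus strand, 208 nt from the gene PARP2 on the plus strand. Its first 300 bases (chr14:20343108-20343407) are shown, without capitals, as the sequence of the RNA with the clearest separation between the groups.
RPPH1: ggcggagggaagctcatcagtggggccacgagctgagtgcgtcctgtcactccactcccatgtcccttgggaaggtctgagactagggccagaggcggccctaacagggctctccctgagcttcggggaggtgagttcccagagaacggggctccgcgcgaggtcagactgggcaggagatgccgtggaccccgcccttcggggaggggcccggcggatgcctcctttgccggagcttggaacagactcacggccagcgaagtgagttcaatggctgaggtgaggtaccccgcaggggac

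RPPH1 was at 14.4, 14.5 and 17.7 CPM in 0Q replicates 1 to 3 and at 11.1, 6.61 and 7.10 CPM in 100Q replicates 1 to 3, from 103, 116 and 134 estimated counts and 57.6, 26.3 and 82.8. The means were 15.5 ± 1.85 and 8.27 ± 2.45 CPM (SD, n = 3 each), and the log2 fold change was -0.92 (95% interval -1.45 to -0.39). It did not pass over all genes (edgeR, Benjamini-Hochberg adjusted p = 0.815). Separation of the groups is common in this table: 10.6% of 14905 tested genes showed it, and 5.19% with 100Q lower.

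All 303 windows of 31 bases in RPPH1 also occur in the noncoding gene ENSG00000259001 (chr14:20343048-20343685), which covers it on the same strand and extends beyond it. That row was at 20.2, 16.8 and 28.3 CPM in 0Q and at 14.7, 20.8 and 11.6 CPM in 100Q, and its groups overlapped. RPPH1 held 38.0% to 46.4% of the counts of both rows in 5 libraries and 24.2% in 100Q replicate 2. The rows added gave 34.6, 31.3 and 46.0 CPM in 0Q and 25.8, 27.4 and 18.7 CPM in 100Q, so the groups stayed apart. The log2 fold change of the sum was smaller, at -0.67 (-1.06 to -0.28; edgeR, Benjamini-Hochberg adjusted p = 0.807), and -0.49 to -0.78 with each library left out in turn.

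RMRP (ENSG00000277027, chr9:35657754-35658017, minus strand) showed no such separation. It is also the 1 RNA of the 10 with none of its 31-base windows, 0 of 234, in a transcript of another gene, and no gene overlaps it. RMRP was at 45.8, 41.5 and 34.2 CPM in 0Q and at 44.1, 32.4 and 46.0 CPM in 100Q, and the groups overlapped throughout. The log2 fold change was 0.03 (95% interval -0.30 to 0.36). RNase P and RNase MRP share most of their proteins. Of 11 such genes none passed, 6 had a positive log2 fold change, and the median was 0.01. POP1, the large shared scaffold protein, had 0.09 ± 0.15, RPP30 had 0.20 ± 0.13 with 100Q above 0Q in all libraries, and RPP38, which binds RNA in both enzymes, had -0.42 ± 0.16 with 100Q below 0Q in all libraries (SE; edgeR, Benjamini-Hochberg adjusted p from 0.987 to 0.991). RPP25L, named here after its value was seen, was the third of the 11 whose groups did not overlap, at -0.37 ± 0.14, where 10.6% of all tested genes did not overlap and 5.19% with 100Q lower.

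TERC (ENSG00000270141, chr3:169764520-169765060, minus strand, 541 nt) was low and variable. The stretch from base 6 to base 96 of the row (chr3:169764965-169765055) is shown because it holds the telomere template, in capitals. The template was located as the longest stretch of the transcript that is complementary to a tandem run of the telomere repeat TTAGGG, and it occurs 1 time, at bases 46 to 56.
TERC: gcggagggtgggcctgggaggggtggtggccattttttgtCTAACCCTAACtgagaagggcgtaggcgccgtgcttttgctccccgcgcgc

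TERC had 46, 122 and 71 counts in the libraries of 0Q, in replicate order, and 16, 25 and 75 in those of 100Q. That corresponds to 6.42, 15.4 and 9.38 CPM in 0Q and to 3.08, 6.28 and 6.44 CPM in 100Q. The groups touched, since 0Q replicate 1 lay just below 100Q replicate 3. The log2 fold change was -0.97 (95% interval -1.77 to -0.16), and it did not pass over all genes (edgeR, Benjamini-Hochberg adjusted p = 0.987). It was -0.58 without 0Q replicate 2, the library with the most TERC, and -1.22 without 0Q replicate 1. The row named Telomerase-vert, which covers 81.0% of TERC, had 0 counts in every library, so no counts were divided between these rows. TERT, the reverse transcriptase that uses the template, was at 9.21 ± 2.33 CPM without queuine and 9.18 ± 1.28 CPM with it (SD, n = 3 each). Its sign turned between scalings and its 95% interval was -0.62 to 0.61. DKC1, the pseudouridine synthase that stabilises TERC, had -0.02 ± 0.09, and SHQ1, which chaperones DKC1, had -0.26 ± 0.11 with all 3 libraries of 100Q below 0Q (SE). Of the 10 telomerase and H/ACA genes, SHQ1 was the 1 whose groups did not overlap. Among all tested genes 10.6% did not overlap, and 5.19% with 100Q lower. None of the 10 genes of the telomerase and H/ACA list passed, 7 had a negative log2 fold change, and the median was -0.01.

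SCARNA2 (ENSG00000278249, chr1:109100193-109100612, plus strand, 420 nt) had 14 counts in 100Q replicate 2 and 0 counts in each of the other 5 libraries. The noncoding gene ENSG00000270066 begins at the same base and runs 7 bases further. Its last 60 bases (chr1:109100560-109100619) are printed with those 7 bases in capitals, because they are all that separates the rows.
ENSG00000270066: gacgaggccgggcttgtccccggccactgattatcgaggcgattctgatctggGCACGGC

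The row of ENSG00000270066 was the mirror image of SCARNA2, with 24, 18 and 15 counts in 0Q, 17 and 25 in 100Q replicates 1 and 3, and 0 in 100Q replicate 2. The locus as a whole therefore had 24, 18 and 15 counts in the 0Q libraries and 17, 14 and 25 in those of 100Q, or 1.98 to 3.35 CPM and 2.15 to 3.52 CPM. The groups overlapped, and the log2 fold change of the sum was 0.21 (95% interval -0.92 to 1.33). The SCARNA2 row alone was too low to test in the main fit. Among genes of Cajal bodies and of the C/D box particles that carry such guides, none of 5 passed. FBL, the methyltransferase fibrillarin, was at 299 ± 46.5 CPM without queuine and 301 ± 48.8 CPM with it (SD, n = 3 each). COIL, the Cajal body scaffold, had a log2 fold change of -0.30 ± 0.13 (SE).

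Across the 10 RNAs, then, 6 single rows reached the test and 0 passed it (adjusted p under 0.05) with edgeR, DESeq2 or limma-voom, against a background of 0.0134% of 14905 genes with edgeR, 0.0738% with DESeq2 and 0.00671% with limma-voom. At an unadjusted p under 0.05 there were 2 by each of the 3 tools, both lower in 100Q, and with edgeR they were RPPH1 and TERC. The share of all tested genes at that level was 4.72% with edgeR, 3.77% with DESeq2 and 5.40% with limma-voom, and with 100Q lower it was 2.23%, 1.80% and 2.66%. Of the 6 rows 5 had a negative log2 fold change, and their median was -0.25, where 50.6% of all genes were negative with a median of -0.0027. With the locus sums, 7 RNAs were tested, 0 passed, and 3 had an unadjusted p under 0.05: RPPH1, TERC and RN7SK, all lower, where 4.73% of all genes did and 2.23% with 100Q lower. The share passing in that fit was 0.0134% of 14902 genes. Their median was then -0.04.

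**Figure D4:**
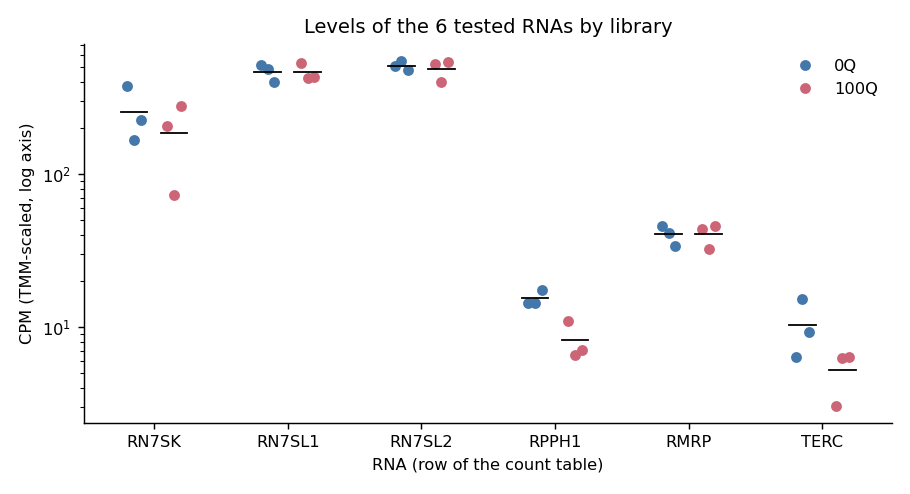
CPM (y axis, TMM-scaled, log scale) of the 6 RNAs with enough counts to test, 1 point per library of 0Q (blue) and 100Q (red), with black bars at the group means (n = 3). RPPH1 is the 1 RNA whose points separate, at 14.4 to 17.7 CPM without queuine and 6.61 to 11.1 CPM with it.

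**Figure D5:**
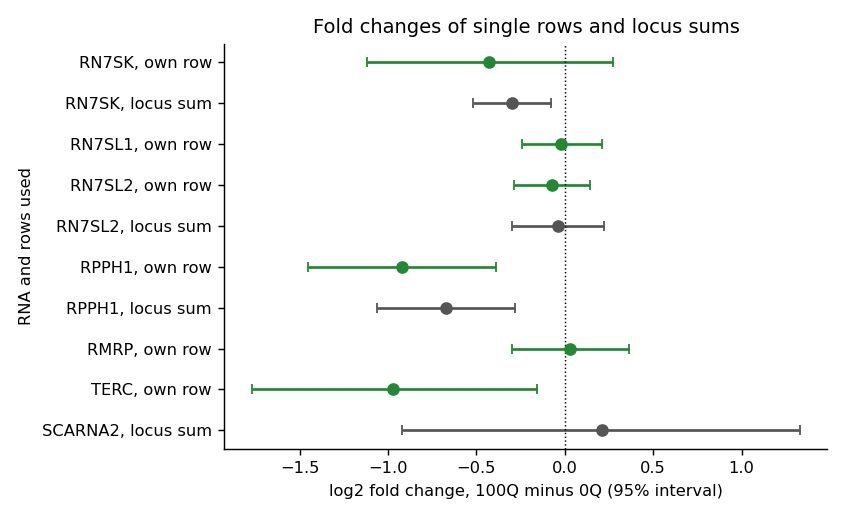
Log2 fold change of 100Q minus 0Q (x axis) with 95% interval from edgeR for single rows (green) and for locus sums (dark grey), 1 line per RNA (y axis). The interval of the 7SK locus narrows from -1.12 to 0.27 for the row RN7SK to -0.52 to -0.08 for the sum.

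Per kilobase of annotated length, the order of the levels was RN7SL2, RN7SL1, RN7SK, RMRP, RPPH1 and TERC in both groups. The mean levels in 0Q were 1710, 1570, 781, 153, 46.6 and 19.2 CPM per kilobase, and in 100Q 1630, 1550, 567, 155, 24.8 and 9.73. RN7SL2 and RN7SL1 overlapped over the libraries (1327 to 1828 and 1334 to 1782 CPM per kilobase), as did RPPH1 (19.9 to 53.0) and TERC (5.69 to 28.4). RN7SK (222 to 1146) and RMRP (123 to 174) overlapped with neither neighbour. The levels of RN7SK, RPPH1 and the 7SL rows are those of single rows and leave out counts given to other rows that contain their sequence.

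RN7SK, RN7SL1, RN7SL2 and RMRP had mean counts of 100 or more, and their log2 CPM over the 6 libraries were compared as a description. RN7SL2 and RMRP had a Pearson r of 0.84, RN7SL1 and RMRP 0.70, and RN7SL1 and RN7SL2 0.49. RN7SK had 0.75 with RN7SL2 and with RMRP, 0.35 with RN7SL1, and -0.58 with the 7SK row that holds the same sequence. The genes closest to RN7SK among 9765 were POLR3GL at 0.995, TSPYL4 at 0.990 and GLI3 at 0.989. For RN7SL1 they were FBXW7 at 0.997, TNS3 at 0.986 and TMEM179B at 0.985, for RN7SL2 ITGA7 at 0.990, ALG11 at 0.987 and ZBTB11 at 0.987, and for RMRP TMCO6 at 0.979, CUL4A at 0.977 and TSC22D1 at 0.976. These are the highest values picked from many genes over 6 libraries and carry no test. They were computed on single rows, and RN7SK held 17.8% to 60.6% of the counts of both rows of its locus. The genes named for RN7SK thus describe that row and not the summed 7SK locus.

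Genes for RNA polymerase III and its factors, which transcribe most of these RNAs, were compared last. None of 20 passed, 10 had a positive and 10 a negative log2 fold change, and the median was 0.02. SNAPC1, a subunit of the complex that starts transcription of 7SK, RPPH1 and RMRP, had the smallest p. It was at 20.3, 20.2 and 21.1 CPM in 0Q and at 8.26, 15.4 and 14.1 CPM in 100Q, with all 3 libraries of 100Q lower. It fell short of the threshold at a log2 fold change of -0.71 ± 0.22 (SE; edgeR, Benjamini-Hochberg adjusted p = 0.987). For the Y RNA proteins, RO60 had 0.01 ± 0.12 and SSB, the La protein that binds new polymerase III transcripts, -0.07 ± 0.08, and for the vault proteins MVP had -0.05 ± 0.64 and TEP1, shared with telomerase, 0.07 ± 0.19. Over all 66 protein genes of the 8 lists, 0 passed with edgeR, DESeq2 or limma-voom. At an unadjusted p under 0.05 there were 6 with edgeR, all lower: SRP72, RPP38, RPP25L, SHQ1, COIL and SNAPC1. With DESeq2 and with limma-voom there were 5 each, also lower. Over all tested genes the share at that level was 4.72% with edgeR, 3.77% with DESeq2 and 5.40% with limma-voom. With 100Q lower it was 2.23%, 1.80% and 2.66%. The groups did not overlap, in either direction, for 8 of the 66 genes. Among all tested genes 10.6% did not overlap, and 5.19% with 100Q lower. Of the 66 genes 38 were negative, with a median of -0.02, where 50.6% of all tested genes were negative.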

How the data were processed

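The authors deposited 1 table of estimated counts by Ensembl gene, not normalized and with fractional values. FastQC, STAR and RSEM are named in the submitters' processing notes without versions, and hg38 in the series design. The annotation, the strand setting and the use of molecular identifiers: not given in the sources used here. RSEM divides reads that fit several transcripts, so rows with sequence in common share counts. Groups came from the sample titles.

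Gene names, coordinates (1-based, hg38) and sequences came from GENCODE 44, which matched 62541 of 63086 identifiers. Counts were rounded and tested with edgeR 4.0.16 in R 4.3.3 (quasi-likelihood, TMM, minimum count 10, Benjamini-Hochberg over all 14905 tested genes). Depth was 4023956 to 11398835 counts per library, and floors cover counting error only. Alternatives were other scalings and filters, DESeq2 1.42.0, limma-voom (limma 3.58.1), a replicate block, each library left out, and copies summed. Summing the rows of 1 locus (same strand, at least 80% of the RNA covered) was added after the data were seen. The edgeR test was tested on simulated data. The RNAs and lists were chosen with earlier results of these data known. Named protein genes were 14 fixed genes and the smallest p of each list. Some items are not reported here.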

Additional observations from a re-analysis of the deposited data

How the results depend on the processing

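The number of the 10 RNAs past the threshold was 0 in the main fit and in all alternatives but 1, the unfiltered fit, which called 1, RN7SK; the cause was not tested. The 66 protein genes gave 0 calls in every alternative. Over all genes, the 2 calls became 71 with no filter, 1 with the stricter filter (mean count 50), 11 with DESeq2, 1 with limma-voom and 0 to 6 with each library left out, and the cause was not tested. Signs turned for values near 0. RN7SL1 had a log2 fold change of 0.0031 with library size only, HEXIM1 had 0.01 in that fit, FBL had -0.01 with no filter and -0.02 with limma-voom, and TERT had 3.6e-05 with RLE, 0.02 with library size only, 0.01 with the stricter filter, 0.00032 with DESeq2, 0.06 with limma-voom and 0.01 with the replicate block. With each library left out, log2 fold changes ran from -0.13 to 0.06 for RN7SL1, -0.15 to 0.05 for RN7SL2 (-0.17 to 0.10 for its locus sum) and -0.08 to 0.16 for RMRP. They ran from -0.10 to 0.05 for HEXIM1, -0.03 to 0.19 for POP1, -0.18 to 0.18 for TERT, -0.10 to 0.04 for DKC1, -0.56 to 0.32 for MVP, -0.06 to 0.23 for TEP1, -0.11 to 0.18 for RO60 and -0.13 to 0.12 for FBL. RPPH1 (-0.79 to -1.18) and TERC (-0.58 to -1.22) stayed negative in these fits. Deviations from the group means correlated at 0.013, 0.002 and 0.233 for same-numbered libraries 1 to 3, and at -0.164 to 0.126 for other pairs. Replicate 3 thus had the highest value, and 3 libraries per group cannot settle whether the numbers pair them. With the replicate block, 3 genes and 0 of the 10 RNAs passed, and RN7SK had -0.53. At this depth, VTRNA1-1, RNY1, RNY3 and the SCARNA2 row had too few counts to test in the main fit. The unfiltered fit, which set no such minimum, tested 9 of the 10 RNAs.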
